A study of Saccharomyces cerevisiae with 6 samples.

Results

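The gag-pol reading frames of the Ty retrotransposons were examined in RNA-seq counts from budding yeast, Saccharomyces cerevisiae. The frames were taken by systematic name from a list of 43, and all 43 were found among the 8898 features counted. RefSeq places 30 of them in Ty1 elements, 10 in Ty2 elements and 2 in Ty3 elements. The remaining frame, YLR035C-A, lies outside any annotated element and is 99.8% identical over the aligned bases to YER160C, a Ty1 frame. The list holds no Ty4 frame. All 43 frames are longer than 3000 bases, and they lie on 15 chromosomes.

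The cells were haploid BY4742 of mating type α with the alleles ura3Δ0, leu2Δ0, his3Δ1 and rrp4Δ::NEO by their labels, and with lys2Δ0 by the study's strain list. The chromosomal RRP4 gene was absent from both groups. RRP4 encodes a cap subunit of the RNA exosome, the complex that processes and degrades RNA from its 3′ end. A low-copy pRS315 plasmid with LEU2 supplied the only copy of the gene, either as Myc-tagged RRP4 (the control, 3 libraries) or as Myc-tagged rrp4-G226D (the mutant, 3 libraries). The cultures, described in the study as independent biological replicates, grew in Leu- minimal medium at 37°C for 5 h. Plasmid copy number was not measured, and the control also carries the plasmid form of RRP4 in place of the chromosomal gene.

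Ty elements are retrotransposons that move through an RNA copy. A Ty RNA runs from one long terminal repeat to the other and serves both as the mRNA for the Gag and Pol proteins and as the template for reverse transcription inside virus-like particles. Gag is made by reading the first frame to its stop codon, and the Gag-Pol fusion is made when a fraction of ribosomes slips forward by a single base near the end of gag. Ty1 RNA is among the abundant polyadenylated RNAs of haploid yeast cells, and its transcription depends in part on Ste12 and Tec1, the factors of the filamentous growth pathway.

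The sites where ribosomes change frame are shown because they mark the join between gag and pol in the listed frames and split Ty1 into sequence groups. Each line gives 30 bases of the element's coding strand, 5′ to 3′, read from the RefSeq genome (R64), with the heptamer at which the frame changes in capitals. Form a was present in 14 Ty1 frames, form b in 13 and form c in 2, YDR098C-B and YGR038C-B. The Ty2 form was present in all 10 Ty2 frames and the Ty3 form in both Ty3 frames. YAR009C and YLR035C-A are annotated as a single segment and have no such join.
Ty1 form a, YNL054W-B, plus strand, chrXIV:520747-520776: acgaccttcatCTTAGGCcagaaacttact
Ty1 form b, YLR227W-B, plus strand, chrXII:594729-594758: acgaccttcacCTTAGGCcaggaacttact
Ty1 form c, YDR098C-B and YGR038C-B: acgaccttcatCTTAGGCcaggaacttact
Ty2 form, YOR192C-B, minus strand, chrXV:708424-708453: acgaacttagtCTTAGGCcagcaacagaaa
Ty3 form, YGR109W-B, plus strand, chrVII:708451-708480: gagcacgtaagGCGAGTTctaaccgatctt
The heptamer CTTAGGC was thus shared by Ty1 and Ty2, and the flanking bases differed between families more than within Ty1. Ty3 had another heptamer, GCGAGTT.

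A second stretch, inside the first 600 bases of each element, is shown because it holds recognition words for Ste12 (TGAAACG) and Tec1 (CATTCT) side by side in some elements. Both words were searched on both strands, and a pair was counted when it fitted within 30 bases. In the lines below the words are read on the element's coding strand, where they appear as CGTTTCA and AGAATG. In the first line these words are in capitals, and in the others capitals mark the bases that differ from the first.
Pair present, 14 Ty1 elements, for example that of YAR009C, minus strand, chrI:165737-165766: aCGTTTCAgcttccaaaacagaAGAATGtg
Closest match in 2 Ty1 elements, of YBL005W-B, plus strand, chrII:221430-221459, and of YMR045C: acAtttcagcttccaaaacagaagaatgtg
Closest match in 14 Ty1 elements: acgtttcagcttccaaaaTTCaagaatAtg
Closest match in 10 Ty2 elements: CcgtttcagcttccaaTTTaCCGgaatTtg
The pair was present in 14 of 30 Ty1 elements and in 0 of 10 Ty2 and 0 of 2 Ty3 elements. For comparison, 600-base regions spanning the starts of 5905 reading frames outside Ty elements were searched. These regions take in sequence on both sides of the start, and the pair was found in 3, or 0.0508%. A match of letters is not evidence of binding, and its absence from this window says nothing about binding elsewhere.

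The 6 libraries held 7663545 to 12181979 counts. The composition factors of the TMM scaling (edgeR's trimmed mean of M-values) were 0.821 to 0.878 in the control libraries and 1.15 to 1.20 in the mutant libraries. The RRP4 transcript was present in both groups, with 165 to 178 normalized counts in the control and 281 to 302 in the mutant, and since both plasmids carry the gene this level does not check the genotype. A normalized count is a CPM value computed on the TMM-scaled library size. Of the genes expressed in α cells, MF(ALPHA)1, the α-factor precursor, averaged 1393 normalized counts in the control and 1174 in the mutant. STE3 averaged 151 and 117, but MF(ALPHA)2 only 5.41 and 5.14. Each of MFA1, MFA2, STE2 and BAR1, which are expressed in a cells, had at most 13.2 in any library. MF(ALPHA)1 and STE3 thus matched the labelled mating type, while MF(ALPHA)2 averaged less than STE2, with 10.6 and 11.2. URA3, deleted in this strain, was at 0 in all 6 libraries, and LYS2 had 1 count in 1 library and 0 in the other 5. HIS3, labelled his3Δ1, did have counts in all 6 libraries, 62.2 to 92.3 after normalization. The source of these HIS3 counts was not tested.

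The summed Ty gag-pol count was higher in rrp4-G226D cells than in RRP4 cells. The control libraries had 2199, 2208 and 2196 normalized counts in total over the 43 frames, and the mutant libraries had 3104, 3267 and 3324. The lowest mutant library thus lay well above the highest control library, and the control libraries were nearly equal. The group means were 2201 ± 5.92 and 3232 ± 114 (SD, n = 3), a 1.47-fold difference. As a share of all counts, the frames held 0.188% ± 0.00691 in the control and 0.378% ± 0.0172 in the mutant (SD, n = 3), and as a share of the counts in open reading frames 0.260% ± 0.00135 and 0.455% ± 0.0170 (SD, n = 3). The unscaled shares differ more between groups than the normalized sums do. These are bulk samples, so a change in RNA per cell and a change in the proportion of cells with Ty RNA cannot be told apart. No p-value is given for a sum, since an exact permutation test of 3 libraries against 3 cannot go below 0.1.

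**Figure D1:**
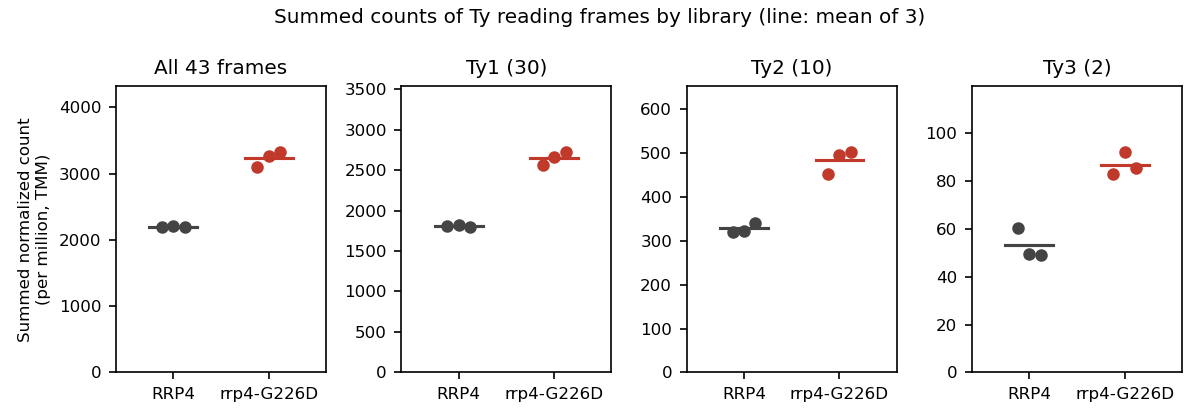
Summed normalized counts (CPM with TMM) of all 43 gag-pol reading frames and of the Ty1, Ty2 and Ty3 frames, with 1 point for each library, a line at the mean of 3 libraries and a separate vertical scale in each panel. In every panel the 3 rrp4-G226D libraries lie above the 3 RRP4 libraries, and the Ty1 sum is several times the Ty2 sum.

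Each family showed a higher sum. The 30 Ty1 frames summed to 1807, 1826 and 1797 normalized counts in the control and 2557, 2667 and 2722 in the mutant, a 1.46-fold difference. The 10 Ty2 frames summed to 320, 323 and 341 in the control and 452, 496 and 502 in the mutant, a 1.47-fold difference. Ty3, a gypsy-like element known to respond to mating pheromone, was represented by YGR109W-B alone, since the other Ty3 frame had no counts. Its 60.5, 49.7 and 49.2 normalized counts in the control compared with 83.0, 92.2 and 85.4 in the mutant, a 1.64-fold difference between group means. The groups did not overlap in any of the 3 families. Ty1 made up 82.3% ± 0.451 of the Ty counts in the control and 82.0% ± 0.387 in the mutant (SD, n = 3), and the Ty2 share was 14.9% in both groups. The Ty3 share, 2.41% and 2.69%, overlapped between groups. The mixture of families was therefore close to the same in the 2 groups while the total differed.

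For individual frames, the quasi-likelihood test of edgeR was fitted across all 7631 features that passed its filter on low counts, with Benjamini-Hochberg adjustment over all of them. A frame was called when its adjusted p was below 0.05 and its fold change at least 1.5, the thresholds used in the study. Of the 43 frames, 40 passed the filter. Among these, 17 were called increased in rrp4-G226D, against a background of 12.7% of all features tested and 5.38% of the open reading frames tested. None was called decreased, where 11.3% of all features were. None of the 40 was lower at an unadjusted p below 0.05, and DESeq2 also gave 0 lower at that level. The increased frames were 14 of 30 Ty1, 2 of 8 tested Ty2 and the 1 tested Ty3. Without RRP4 replicate 3 the count of increased frames fell from 17 to 11, the lowest of the 6 fits that leave out 1 library, and the other 5 gave 14 to 21. Over these 6 fits 886 to 937 of all features were called increased.

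The remaining frames mostly moved in the same direction by less. With no fold threshold, 33 of the 40 had an adjusted p below 0.05 and were higher in the mutant, against 28.6% of all features and 23.1% of open reading frames. The 3 mutant libraries lay above all 3 control libraries for 35 of the 40, against 31.3% of all features, and the groups overlapped for the other 5. The median log2 difference (rrp4-G226D minus RRP4) over the 40 frames was 0.54, with a middle range of 0.40 to 0.66, while over all features it was 0.01 and over open reading frames -0.07. The fold threshold lies at 0.58 on this scale. There were 8 frames within 0.1 below it and 9 within 0.1 above it, so the split into called and uncalled frames falls in the middle of the group. The frames are copies of related sequences and are not independent of each other.

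**Figure D2:**
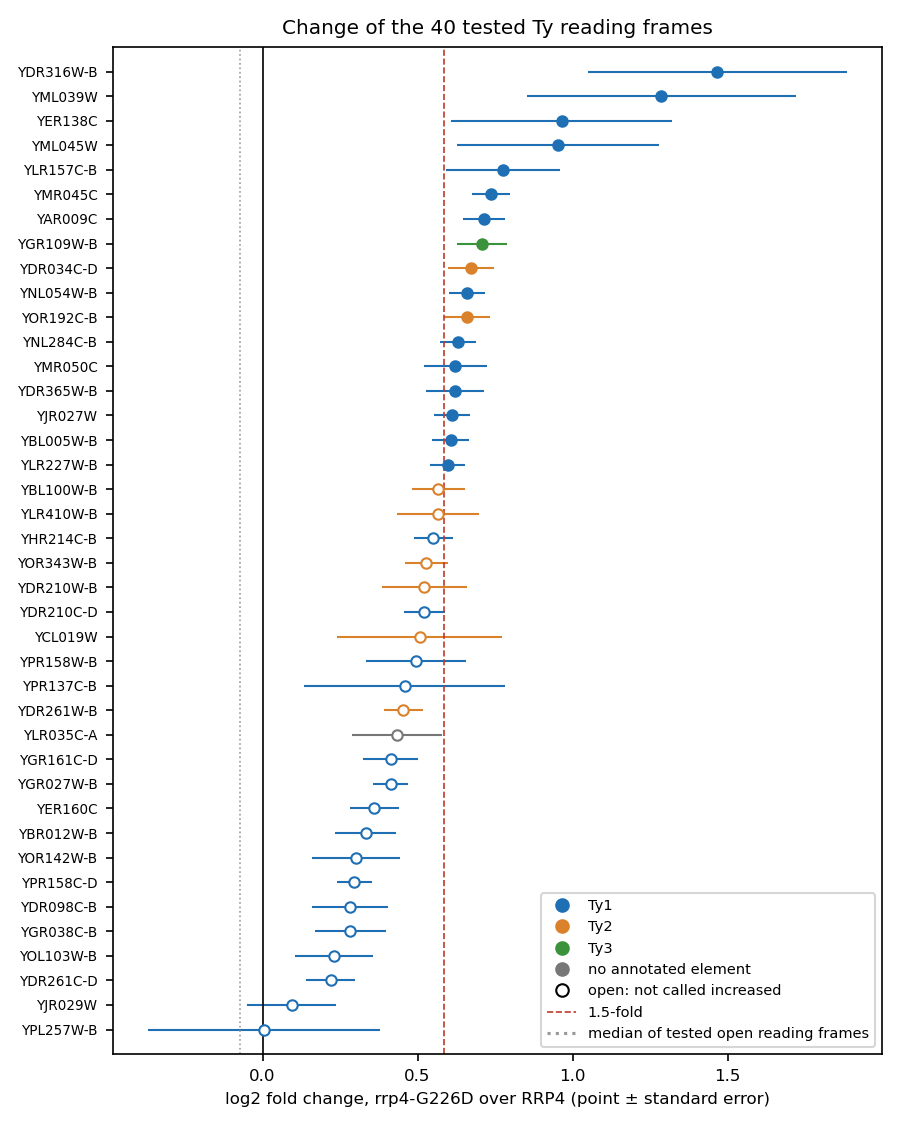
Log2 difference of each of the 40 tested frames (rrp4-G226D minus RRP4) with its standard error, ordered by size and coloured by family, filled where called increased, with a dashed line at 1.5-fold and a dotted line at the median of open reading frames. All 40 points are at or above 0, 17 are filled, and the widest errors belong to the 4 largest differences and to YPL257W-B.

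The size of the difference depended on the scaling. When the libraries were scaled by their totals alone, 38 of the 40 frames were called increased, against 37.7% of all features, and their median was 0.99, but the median of all features also moved to 0.46. Of all features called under that scaling 95.0% were increased, compared with 52.8% under TMM and 62.9% when TMM was computed over open reading frames only. Relative to the median of all features the frames stood at 0.53 under each of these 3 scalings. A change of scaling shifts all features by nearly the same amount, so this equality follows from the arithmetic and is not a test.

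The 3 frames with the most counts carried a large part of the total. YLR227W-B, a Ty1 frame on chrXII:593438-598706 (plus strand), had 218, 227 and 233 normalized counts in the control and 330, 346 and 349 in the mutant. Its log2 difference was 0.60 (SE 0.057, adjusted p = 8.73e-08, edgeR). YBL005W-B, a Ty1 frame on chrII:221330-226598 (plus strand), had 239, 221 and 213 in the control and 334, 348 and 344 in the mutant. Its log2 difference was 0.61 (SE 0.059, adjusted p = 1.15e-07, edgeR). YNL054W-B, a Ty1 frame on chrXIV:519456-524706 (plus strand), had 195, 192 and 201 in the control and 299, 303 and 326 in the mutant. Its log2 difference was 0.66 (SE 0.058, adjusted p = 3.19e-08, edgeR). In all 3 the groups were far apart compared with the spread within a group. YLR227W-B and YBL005W-B stand close to the fold threshold: without RRP4 replicate 1 the log2 difference of YLR227W-B was 0.57, without mutant replicate 2 it was 0.58 and without mutant replicate 3 it was 0.57, each under the threshold. That of YBL005W-B was under the threshold without RRP4 replicate 3 (0.57) and without mutant replicate 2 (0.58). The call of YNL054W-B was kept in all 6 fits.

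YGR109W-B, the Ty3 frame on chrVII:707610-712254 (plus strand), had a log2 difference of 0.71 (SE 0.080, adjusted p = 6.67e-07, edgeR), and its call was kept in all 6 fits. Its element lies 15 bases from a tRNA gene. Of the 400-base windows that reach into the part of the frame outside gag, 98.2% are found nowhere else in the reference. The other Ty3 frame, YIL082W-A on chrIX:205635-210132, was at 0 in all 6 libraries although 97.0% of its 400-base windows are unique. The count files also list YIL080W and YIL082W, names that the RefSeq annotation does not hold, and whether these share its position was not tested.

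The largest log2 differences belonged to frames with few counts. YDR316W-B had 3, 7 and 8 counts in the control and 32, 19 and 25 in the mutant, a log2 difference of 1.47 (SE 0.42, adjusted p = 0.00583, edgeR). YML039W had 3, 6 and 3 counts against 14, 13 and 18, a log2 difference of 1.29 (SE 0.43, adjusted p = 0.0162, edgeR). These are raw counts, and for both frames each mutant library was above each control library. YER138C had 11, 12 and 4 raw counts in the control and 19, 34 and 27 in the mutant, with a log2 difference of 0.97 (SE 0.36). YML045W had 10, 11 and 7 against 18, 27 and 38, with 0.95 (SE 0.33), and YLR157C-B had 33, 60 and 36 against 99, 97 and 139, with 0.77 (SE 0.18). The calls of YDR316W-B and YLR157C-B were kept in all 6 fits. That of YML039W was lost without RRP4 replicate 1 (1.10) or 3 (1.23), and that of YER138C without RRP4 replicate 3 or mutant replicate 2 (0.72 in both). That of YML045W was lost without RRP4 replicate 2 (0.98) or 3 (0.89) or mutant replicate 3 (0.76). DESeq2 called none of these 3, with adjusted p = 0.0800 for YML039W, 0.0709 for YER138C and 0.0706 for YML045W, and called the other 14 of the 17, against 10.5% of all features with an adjusted p in DESeq2. The standard errors of the first 4 of these frames are several times those of the abundant frames.

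No tested frame had a negative log2 difference, so the 5 at the low end were all at or above 0. YPL257W-B had 6, 13 and 8 raw counts in the control and 12, 14 and 15 in the mutant. Its log2 difference was 0.00 (SE 0.37, adjusted p = 0.993, edgeR) and its groups overlapped. YJR029W had 10.1, 11.9 and 10.6 normalized counts against 12.3, 9.87 and 12.6, a log2 difference of 0.09 (SE 0.14). YDR261C-D had 36.5, 37.4 and 38.9 against 45.5, 42.4 and 43.3, a log2 difference of 0.22 (SE 0.078, adjusted p = 0.0217, edgeR). YOL103W-B gave 0.23 (SE 0.13) and YGR038C-B 0.28 (SE 0.11), with means of 12.2 and 24.8 normalized counts in the control and 14.4 and 30.1 in the mutant. YDR261C-D and YGR038C-B had an adjusted p below 0.05 without reaching 1.5-fold, and their groups did not overlap. With DESeq2 their adjusted p was 0.0596 and 0.0679. For YDR261C-D it was also above 0.05 without RRP4 replicate 1 (0.0822) or 2 (0.0664) or mutant replicate 1 (0.0752), in the edgeR fit. For YGR038C-B the log2 difference was 0.13 without RRP4 replicate 1 (adjusted p = 0.314, edgeR), and the adjusted p was 0.116 and 0.0835 without mutant replicates 1 and 2.

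The 3 frames that did not enter the test were YIL082W-A and 2 Ty2 frames. YFL002W-A had 11, 7 and 7 raw counts in the control and 5, 6 and 7 in the mutant. After normalization this is 0.759 to 1.33 in the control and 0.463 to 0.506 in the mutant, the only frame in which all mutant libraries were below all control libraries. Fitted without the low-count filter its log2 difference was -1.06 (unadjusted p = 0.0436, adjusted p = 0.0778, edgeR), and DESeq2 gave an adjusted p of 0.161. YGR161W-B had 3, 4 and 3 raw counts against 3, 5 and 8. The coding sequences of these 2 frames are identical to each other, so reads that lie within one cannot be placed apart from reads within the other. Of the 400-base windows that reach into the part outside gag, 2.07% were unique for YFL002W-A and 1.48% for YGR161W-B.

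**Figure D3:**
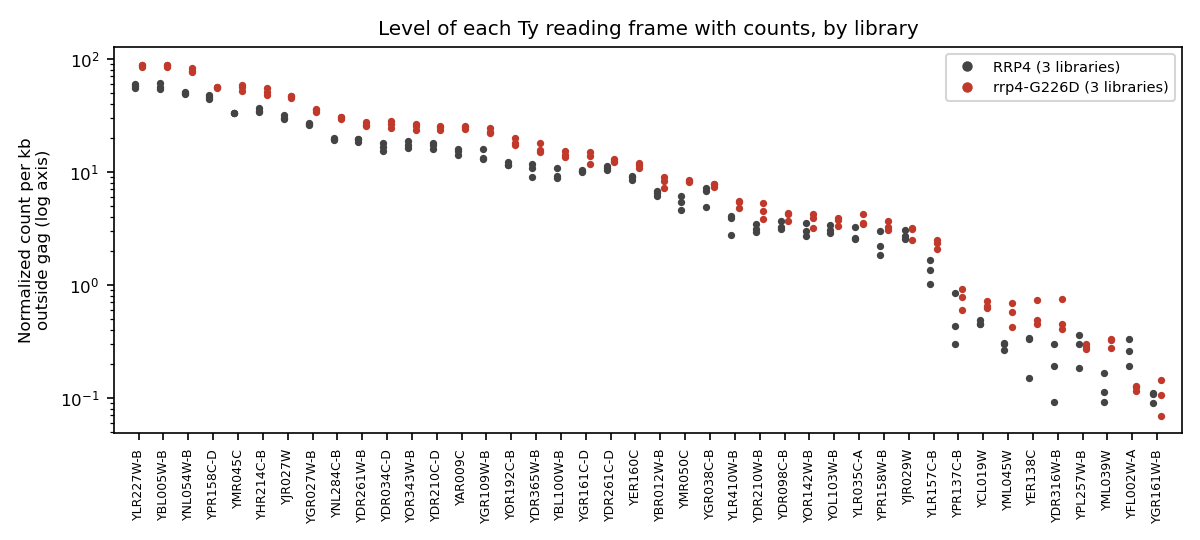
Normalized counts of the 42 Ty frames with counts in each of the 6 libraries, per kilobase of the frame outside its nested gag frame, on a log axis, ordered by mean raw count and coloured by group. The group means reach 57.3 in the control and 86.6 in the mutant for YLR227W-B, and the mutant points of YFL002W-A lie below its control points.

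Levels differed between copies by orders of magnitude. Levels are given per kilobase of the part of a frame outside its nested gag frame, 3946 bases of the 5269 in YLR227W-B and YBL005W-B. Per kilobase of this part, YLR227W-B had 57.3 normalized counts in the control and 86.6 in the mutant, YBL005W-B had 56.8 and 86.6, and YNL054W-B had 49.9 and 78.8. The first 2 differ by less than the spread of their libraries, and YNL054W-B lies below both in the mean. The 5 frames with the most counts made up 43.5% ± 0.422 of the Ty counts in the control and 44.3% ± 0.381 in the mutant (SD, n = 3), and the top 10 made up 66.8% and 67.4%. Over the 33 frames with a mean of at least 50 counts, the profile of levels correlated between libraries with r from 0.989 to 0.997 in 15 pairs of libraries. This is a correlation across frames that share sequence and mappability, and it describes how alike the libraries are.

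How far a read can be assigned to a single copy was examined next. Identity was counted over aligned bases only, with inserted and deleted bases left out, so frames of unlike length are compared on part of their sequence. Pairwise nucleotide identity was 93.4% to 99.98% between Ty1 frames (median 97.7% over 435 pairs), 98.4% to 100% between Ty2 frames (median 98.8% over 45 pairs) and 99.2% between the 2 Ty3 frames. Between Ty1 and Ty2 the median was 82.9%. For 12 of the 43 frames no 100-base window outside the overlap with gag was unique in the genome. Their median count was 22.8 (range 4.33 to 1259), compared with 562 (range 0 to 3005) for the other 31. Across the 42 frames with counts, the Spearman correlation of log2 mean count with the share of unique 400-base windows reaching outside gag was 0.73, and with the share of unique 100-base windows outside gag 0.62. The log2 difference between genotypes had a Spearman correlation of 0.26 (Pearson 0.10) with the share of unique 100-base windows over 40 frames. Its median was 0.39 over the 10 tested frames without a unique 100-base window outside gag and 0.57 over the other 30. For log2 mean count the Pearson values were 0.61 with 400-base windows and 0.39 with 100-base windows. These are descriptions across related copies and carry no p-value. YGR027W-B had a mean count of 1259 and no unique 100-base window outside gag. Settings for reads that map to several places are not given in the sources used here, so values of single copies are uncertain, and the part of mappability in their levels was not tested.

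**Figure D4:**
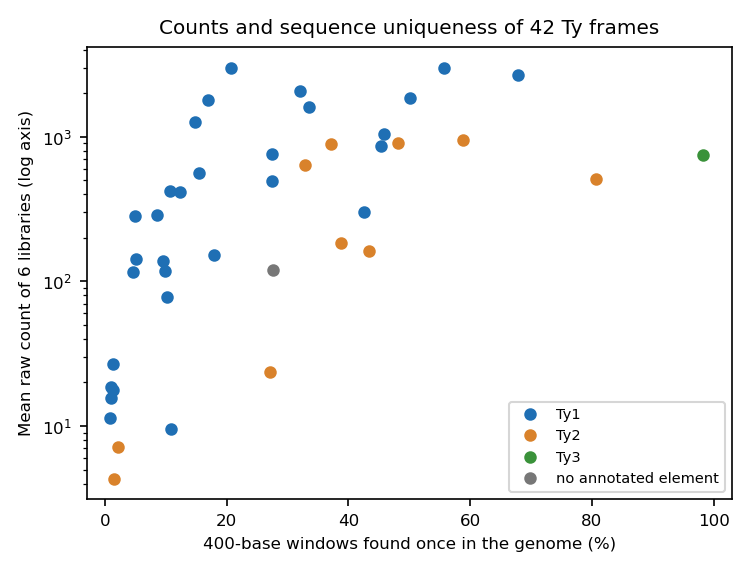
Mean raw count of each of the 42 Ty frames with counts (log axis) against the percentage of its 400-base windows, reaching outside gag, found once in the genome, coloured by family. Frames under 3% unique windows all have a mean below 30 counts, and frames with many counts span a wide range of uniqueness.

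A pair of well-counted Ty1 frames, chosen after their values were seen, shows the range among abundant copies. YMR045C on chrXIII:357359-362627 (minus strand) had 130, 131 and 130 normalized counts in the control and 203, 230 and 219 in the mutant, a log2 difference of 0.74 (SE 0.060, adjusted p = 1.23e-08, edgeR). YPR158C-D on chrXVI:850989-856257 (minus strand) had 172, 180 and 187 in the control and 221, 218 and 222 in the mutant, a log2 difference of 0.30 (SE 0.056, adjusted p = 0.000215, edgeR). The ratio of YMR045C to YPR158C-D was 0.754, 0.730 and 0.696 in the control libraries and 0.920, 1.05 and 0.987 in the mutant libraries. The ratios of the 2 groups did not overlap. Because the pair was picked for its unlike changes, this follows in part from the choice and is not a test.

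The sequence groups shown above were set beside the changes. Among Ty1 frames with form a of the frameshift site, 4 of 14 were called increased with a median log2 difference of 0.48, and their sum averaged 597 ± 6.25 in the control and 862 ± 42.2 normalized counts in the mutant (SD, n = 3), 1.44-fold. Among those with form b, 9 of 13 were called with a median of 0.61, and their sum averaged 1122 ± 8.24 in the control and 1652 ± 43.4 in the mutant (SD, n = 3), 1.47-fold. The 2 frames of form c, neither of them called, had a median of 0.28, and their sum averaged 37.9 ± 4.95 in the control and 46.1 ± 1.27 in the mutant (SD, n = 3), 1.22-fold with no overlap between groups. The form b sum divided by that of the form a frames was 1.90, 1.87 and 1.87 in the control and 1.95, 1.96 and 1.85 in the mutant, and these ratios overlapped. More frames of form b were called, and the sums of forms a and b differed between genotypes by 1.44-fold and 1.47-fold. The background for these counts is 12.7% of all features tested and 5.38% of the open reading frames tested. Of all tested frames, 8 lie within 0.1 below the fold threshold and 9 within 0.1 above it. The difference in calls between forms therefore depends on the threshold.

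Ty1 frames were also set apart by the adjacent Ste12 and Tec1 words. Of the 14 with the pair, 7 were called increased, the median log2 difference was 0.53, and the sum averaged 795 ± 8.95 in the control and 1122 ± 24.2 normalized counts in the mutant (SD, n = 3), 1.41-fold. Of the 16 without it, 7 were called, the median was 0.54, and the sum averaged 1016 ± 10.3 in the control and 1527 ± 60.0 in the mutant (SD, n = 3), 1.5-fold. The background for both counts of calls is 12.7% of all features tested and 5.38% of the open reading frames tested. YBL005W-B and YMR045C, whose elements lack the Ste12 word at this place, are among the frames with the highest counts. The 8 tested Ty2 frames, whose elements lack the pair, had a median log2 difference of 0.55 (range 0.45 to 0.67).

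Ty elements are known to insert upstream of genes transcribed by RNA polymerase III. Here 33 of the 43 frames (76.7%) had a tRNA gene within 1000 bases of their element, or of the frame itself for YLR035C-A. Of reading frames outside Ty elements, 373 of 5906 (6.32%) had a tRNA gene within 1000 bases. The shares were 23 of 30 for Ty1, 7 of 10 for Ty2 and 2 of 2 for Ty3. Distances were measured in the RefSeq annotation. An element reaches past its frame, so the percentages for Ty frames and for other reading frames are not measured alike.

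The gag frames and the other Ty frames were examined next. RefSeq lists a gag-only frame that begins with the gag-pol frame and ends inside it for 40 of the members, and all 40 of these gag frames were at 0 in all 6 libraries. A read in gag overlaps both features, and the setting for such reads is not given in the sources used here, so whether the gag-pol counts hold reads from gag was not tested. YLR256W-A, a Ty1 gag frame without a listed gag-pol frame around it, is not affected by such an overlap. It had 239, 236 and 235 normalized counts in the control and 343, 359 and 352 in the mutant, a log2 difference of 0.57 (SE 0.055, adjusted p = 9.99e-08, edgeR). Its groups were far apart, and the difference stayed just under 1.5-fold. YAR010C, the gag frame of the YAR009C element, is annotated apart from it and had 2 to 21 raw counts, too few for the test.

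Genes known to act on Ty elements were tested in the same fit. The 107 genes of 5 lists were all found and tested, and 1 was called increased and 1 decreased. Their median log2 difference was 0.07, against 0.01 over all features and -0.07 over open reading frames. By list, the medians were 0.12 for transcription factors and coactivators, 0.14 for chromatin factors and repressors, -0.01 for RNA handling and decay, 0.15 for genes that restrict transposition and -0.00 for RNA polymerase III and integration. The counts of called genes are far below the 12.7% and 11.3% of all features, and also below the 5.38% and 13% of open reading frames.

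**Figure D5:**
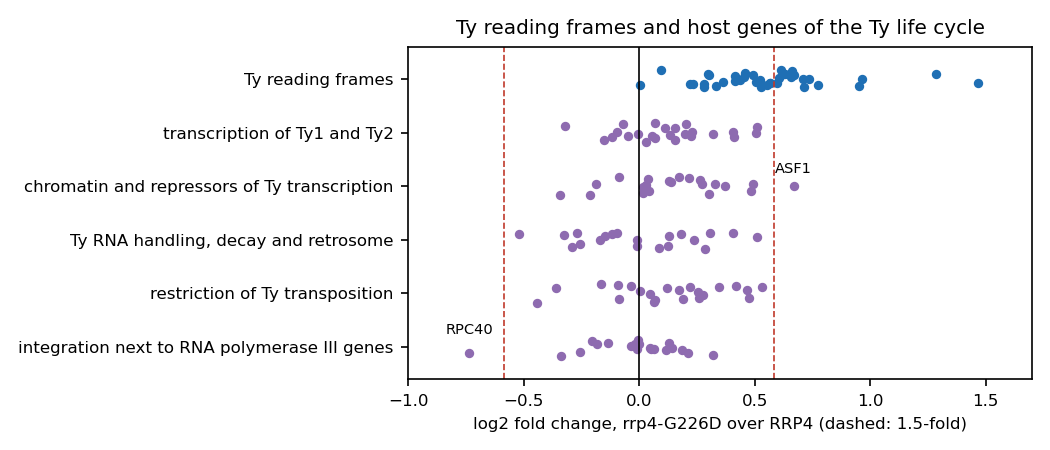
Log2 difference (rrp4-G226D minus RRP4) of the 40 tested Ty frames (top row) and of the 107 host genes, 1 row for each of the 5 lists, with dashed lines at 1.5-fold. Of the host genes, only ASF1 was called increased and only RPC40 decreased.

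The called gene on the side of repression was ASF1, a histone chaperone. It had 34.2, 34.3 and 36.3 normalized counts in the control and 45.4, 63.3 and 57.1 in the mutant, a log2 difference of 0.67 (SE 0.10, adjusted p = 2.50e-05, edgeR). Its call was lost without mutant replicate 2, where the log2 difference was 0.55. RPC40 encodes a subunit shared by RNA polymerases I and III that Ty1 integrase binds. It had 288, 264 and 254 normalized counts in the control and 168, 149 and 167 in the mutant, and fell by 0.74 on the log2 scale (SE 0.065, adjusted p = 3.33e-08, edgeR). RPC40 was called in all 6 fits.

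The other named genes of the lists include activators of Ty1. STE12 had a log2 difference of 0.23 (adjusted p = 0.00889, edgeR) and TEC1 of -0.07 (adjusted p = 0.381). SPT3, a subunit of the SAGA coactivator required for Ty transcription, had -0.05 (adjusted p = 0.610). SNF2, the ATPase of the SWI/SNF remodeler, had 0.41 (adjusted p = 1.98e-05) and was higher in the mutant without reaching 1.5-fold. XRN1, the cytoplasmic 5′ exonuclease, had 0.24 (adjusted p = 0.00227), and DBR1, the lariat debranching enzyme, had -0.27 (adjusted p = 0.0146). None of these 6 genes passed the 1.5-fold threshold.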

How the data were processed

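Total RNA of 3 RRP4 and 3 rrp4-G226D cultures was depleted of rRNA, made into stranded paired-end libraries and sequenced. According to the study's methods and the submitters' processing notes, the authors demultiplexed with bcl2fastq 2.17, aligned with STAR to R64, and counted with featureCounts 1.6.4 over R64 genes plus cryptic and stable unannotated transcripts. Settings for strand, multiple mapping and overlapping features are not given in the sources used here. The deposited values are whole-number counts per feature and library, not normalized, and no column belonged to another sample. A deposited DESeq2 table of the authors' fold changes and p-values was not used.

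Counts were analysed in R 4.3.3 with edgeR 4.0.16 (filterByExpr, TMM, glmQLFit and glmQLFTest, genotype only) and Benjamini-Hochberg adjustment over 7631 features. A call needed an adjusted p below 0.05 and at least 1.5-fold. SE is the log2 difference divided by the square root of F. The script was tested on simulated data. Gene positions, identities (edlib 1.3.9.post1, end-to-end alignment) and windows came from RefSeq R64, which matched 6048 of the 8898 features. Nucleotide identity, the share of matches among aligned bases without gaps, stands in for the protein identity planned. The alternatives were DESeq2 1.42.0, other scalings, filters and thresholds, a replicate block and leaving out each library.

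The members and gene lists were chosen with earlier results of these data known. Named frames were the 3 with the most counts, both Ty3 frames, the 5 highest and 5 lowest log2 differences, and called host genes with STE12, TEC1, SPT3, SNF2, XRN1, DBR1 and RPC40. Other names were chosen after their values were seen. Depth limits the precision of frames with under 30 counts.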

Additional observations from a re-analysis of the deposited data

How the results depend on the processing

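The median and the family sums kept their direction under every alternative run, and no frame was called decreased under any. With library size only, 38 frames (37.7% of all features increased) and 43 of 107 host genes (39.7% of all features called) were called, the median was 0.99, and the log2 ratios of the sums were 1.00 (all and Ty1), 1.01 (Ty2) and 1.16 (Ty3). With TMM over open reading frames only, the median was 0.61 and the sums 0.63 (all), 0.62 (Ty1) and 0.63 (Ty2). With adjusted p alone, 33 frames passed (28.6% of all features, higher) and 57 of 107 host genes (59.5% of all features). At least 2-fold left 2 of 40 frames (5.39% of all features increased) and 0 host genes (7.86% called). The host counts with library size only and adjusted p alone, and the 2 frames, are near these shares. Leaving out each library gave 11 to 21 increased frames, a median of 0.52 to 0.60, 1 to 3 host genes called, and sums of 0.53 to 0.57 (all), 0.52 to 0.56 (Ty1), 0.52 to 0.60 (Ty2) and 0.65 to 0.81 (Ty3). In these fits 886 to 937 of all features were called increased and 842 to 954 decreased. YPL257W-B ranged from -0.24 to 0.25. DESeq2 called 14 frames (10.5% of all features increased), all among the 17, and not YML039W, YER138C or YML045W. Of the 17 increased frames, 9 were called in all 6 fits that leave out 1 library. The Ty4 sums had no value because the list holds no Ty4 frame. The cause of these differences was not tested.

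The replicate numbers did not pair the samples: the correlations of same-numbered libraries were 0.02, 0.09 and -0.11. With the number as a replicate block, 17 frames were called increased, against 12.6% of all features, and the median was 0.54. Low depth limits the frames with the largest log2 differences.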

Other observations

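Ty4 is not in the list of frames, and its features were read separately. YHL009W-B had 35, 25 and 27 raw counts in the control and 58, 74 and 79 in the mutant, a log2 difference of 0.67 (SE 0.21, adjusted p = 0.0111, edgeR). YPL060C-A had 34, 49 and 38 against 80, 115 and 134, a log2 difference of 0.83 (SE 0.18, adjusted p = 0.000809, edgeR). Both were called increased, and in both each mutant library was above each control library. YJL113W averaged 28.6 normalized counts in the control and 41.2 in the mutant, a log2 difference of 0.53 (SE 0.098, adjusted p = 0.000174, edgeR) that stayed under 1.5-fold. YJL114W gave 0.59 (adjusted p = 0.0762, edgeR) with overlapping groups, and YHL009W-A was at 0 in all 6 libraries.

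The genes next to the Ty elements, a set chosen after the Ty values were seen, were read in the same fit. Of 74 neighbouring genes, 67 were tested. Of these, 3 (4.48%) were called increased (UTP20, BUR6 and THI72) and 6 (8.96%) decreased (IPP1, LEU2, RPS25A, CLB6, BNA1 and POR1). The shares were 12.7% and 11.3% of all features, and 5.38% and 13% of the open reading frames tested. The increased share of the neighbours is near that of open reading frames. Their median log2 difference was 0.03, against -0.07 over open reading frames. LEU2 is deleted from the chromosome of this strain and carried by the plasmid, so its level does not describe the chromosomal neighbourhood. Whether the deletion also reaches the neighbouring Ty2 frame, YCL019W, was not tested.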
